A study of Rattus norvegicus with 115 samples.

Results

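The leukocytes described here came from rat mammary tumours in which the recorded fraction of CD8 cells (CD8Frac, a number between 0 and 1 in the deposited sample sheet, whose denominator is not given in the sources used here) was 0.05 or more. The members were selected on measured values, in 2 steps. A library counted as leukocyte if Ptprc, the gene of the leukocyte surface protein CD45, reached 300 CPM (a gene's counts scaled to a fixed library total), and it counted as CD8-high if the CD8Frac of its tumour was 0.05 or more. By this rule 14 libraries of 12 rats were CD8-high, out of 108 count columns, and they are set against 12 libraries of 11 rats with a CD8Frac below 0.05, called CD8-low. Another 8 Ptprc-high libraries had no CD8Frac and were left out. The member nearest to the limit had a CD8Frac of 0.0504 (tumour P29T1) and the nearest tumour outside it had 0.0473 (P39T1). CD8Frac ran from 0.0504 over a median of 0.0712 to 0.380 in the CD8-high tumours, and from 0.01 over 0.0228 to 0.0473 in the CD8-low tumours. Ptprc was at least 486 CPM in the libraries kept and at most 124 CPM in those that failed the rule, so no library lay near that limit.

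The tumours were induced in virgin Sprague Dawley rats by 1 to 3 intraperitoneal injections of 50 mg/kg N-nitroso N-methylurea (NMU), a carcinogen, at an age of 35 to 53 days. Once a tumour could be felt, the rats of this cohort were given an antibody against PD-L1, a ligand that restrains T cells, or LY2157299 (galunisertib), which blocks TGFBR1 signalling, or both agents, or vehicle. The CD8-high tumours were 2 of the combination (both of 1 rat), 5 of anti-PD-L1, 2 of LY2157299 and 5 of vehicle. The CD8-low tumours were 3 of the combination, 3 of anti-PD-L1, 2 of LY2157299 and 4 of vehicle. Both groups therefore hold all 4 treatments, which entered the main fits as a covariate. The 26 libraries came from 20 rats, of which 6 gave 2 tumours each and 3 (P24, P26 and P29, all on anti-PD-L1) gave a tumour to each group, so tumours of 1 rat share that rat and are not fully independent. The labels name a sorted fraction for each sample, whereas the count columns name only the rat and the tumour, so the leukocyte identity rests on Ptprc.

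CD8 is the co-receptor with which cytotoxic T cells bind MHC class I on a target cell. It is built from the products of Cd8a and Cd8b. In the rat, natural killer cells and some myeloid cells also carry CD8 alpha, whereas the beta chain is largely a T cell product. Activated cytotoxic T cells kill through perforin and granzymes, which enter the target, and release interferon gamma and chemokines. The comparison asks how the RNA of tumour leukocytes differs where CD8 cells were recorded as more frequent. In bulk libraries, a smaller number of cells of a type and less RNA per cell cannot be told apart.

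Total counts ran from 6674181 to 17756050 in the CD8-high libraries and from 10968936 to 21925963 in the CD8-low libraries. The deposited sheet gives a batch number, and 7 CD8-high and 4 CD8-low libraries were of batch 2, against 7 CD8-high and 8 CD8-low libraries of batch 3. Of the genes tested, 106 had under 0.5 CPM in every library of batch 2 and a median above 1 CPM in batch 3, among them Pdcd1, the gene of the checkpoint receptor PD-1. One CD8-high library stood apart, that of vehicle tumour P5T3. Its level of Cd3e, which belongs to the T cell receptor, was 21.7 CPM, whereas the CD8-low libraries held 574 to 1026 CPM. Its Cd68, a lysosomal protein of macrophages, lay at 1354 CPM, above all other libraries. Results that rest on it are given with and without it. P5T3 was set apart by gene levels of these same data, so a larger difference without it is no separate support. The other libraries held leukocyte transcripts well beyond Ptprc, with a median Cd3e of 954.5 CPM in the 13 other CD8-high libraries and 843 CPM in the CD8-low libraries. Epcam, an adhesion protein of epithelial cells, had medians of 28.5 CPM in CD8-high and 18.9 CPM in CD8-low libraries, so some epithelial RNA was present in both groups.

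The CD8 genes themselves were first compared. Cd8a ranged from 38.7 over a median of 182 to 589 CPM in the CD8-high libraries, and from 47.95 over 100.6 to 289 CPM in the CD8-low libraries. The groups overlapped: 3 of the 12 CD8-low libraries lay above the CD8-high median, and 4 of the 14 CD8-high libraries lay below the CD8-low median. By edgeR's quasi-likelihood test the log2 difference was 0.78 ± 0.380 (SE), with a 95% interval of -0.01 to 1.57, an unadjusted p of 0.0515 and an adjusted p of 1. Cd8b ranged from 10.04 over a median of 32.04 to 72.6 CPM in CD8-high libraries, and from 7.94 over 18.95 to 76.9 CPM in CD8-low libraries. The highest Cd8b value of all was that of a CD8-low tumour, while only 1 CD8-high library fell below the CD8-low median. Its log2 difference was 0.57 ± 0.321, with an interval of -0.09 to 1.24 and an unadjusted p of 0.0853. Neither CD8 gene passed. Without rat P16, whose tumour held the highest Cd8a, the differences were 0.47 for Cd8a and 0.31 for Cd8b, and without rat P39 they were 0.89 for Cd8a and 0.80 for Cd8b.

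**Figure D1:**
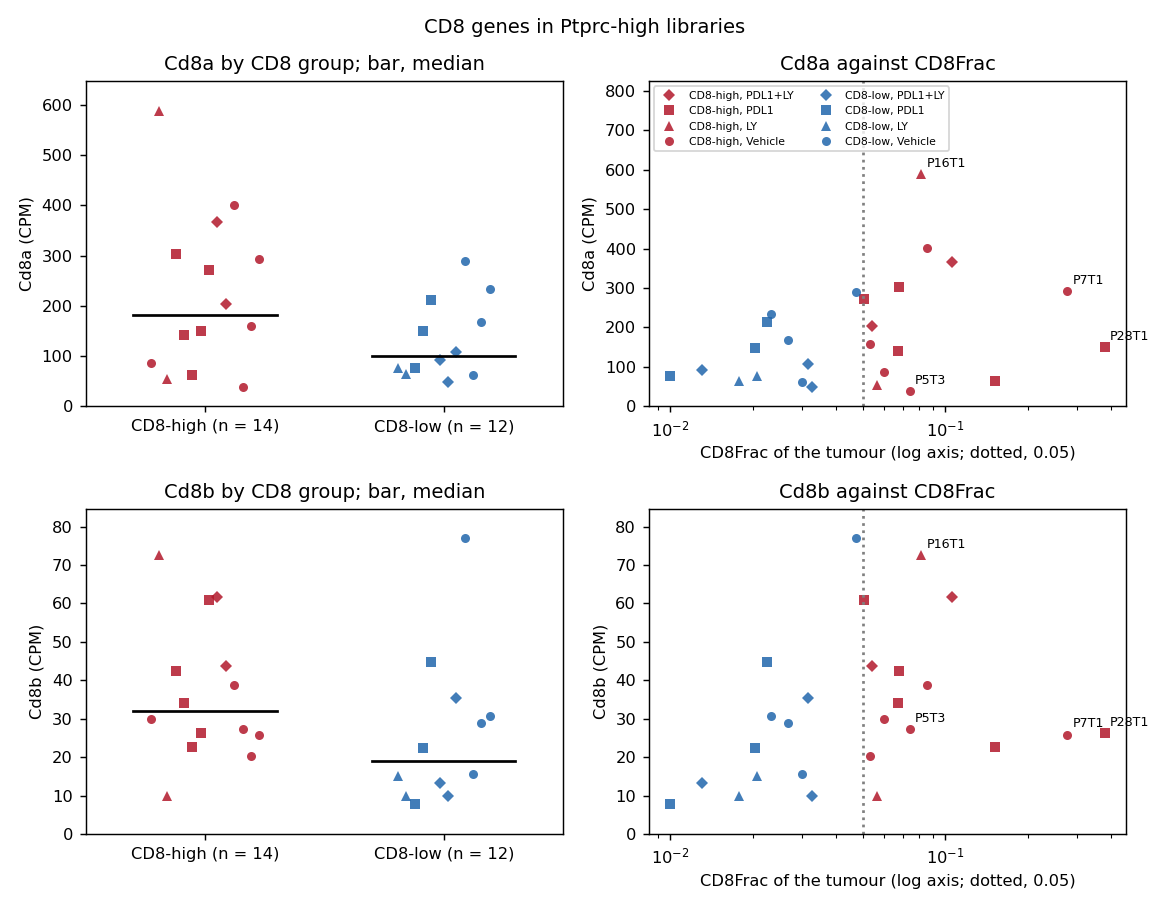
Cd8a and Cd8b levels (CPM, vertical axes) in the 14 CD8-high and 12 CD8-low Ptprc-high libraries (left; bars are medians) and against the CD8Frac of the tumour on a log axis (right; dotted line at 0.05). Marker shapes give the treatment; the groups overlap for both genes, and the tumours with the highest CD8Frac, P28T1 and P7T1, do not hold the highest levels.

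Tumour P28T1, on anti-PD-L1, had the highest CD8Frac (0.380), a Cd8a of 149.8 CPM and a Cd8b of 26.3 CPM, both below the CD8-high medians. Tumour P7T1, on vehicle, had the next highest CD8Frac (0.277), with 293 CPM of Cd8a and 25.9 CPM of Cd8b. The highest levels of both genes in the CD8-high group were those of P16T1, on LY2157299, with a CD8Frac of 0.0816. Over the 26 tumours, Pearson's r of log2(CPM + 1) with CD8Frac was 0.20 for Cd8a (permutation p = 0.346) and 0.15 for Cd8b (permutation p = 0.477). Spearman's rho was 0.32 for Cd8a (permutation p = 0.111) and 0.41 for Cd8b (permutation p = 0.0374), and neither passed when adjusted over the 10804 genes correlated. Without P28T1 and P7T1, the tumours farthest from the median CD8Frac, r was 0.21 for Cd8a and 0.41 for Cd8b. With the tumours of a rat averaged, rho was 0.37 for Cd8a (permutation p = 0.107) and 0.42 for Cd8b (permutation p = 0.0679) over 20 rats. Between Cd8a and Cd8b themselves r was 0.79 and rho was 0.77 (permutation p = 2e-05 for both), and r was 0.83 without the libraries with the most extreme Cd8a.

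The CD8 genes were also compared within treatments and batches, most of which hold few tumours. Combination tumours of the CD8-high group, both of 1 rat, held 204 and 367 CPM of Cd8a, against 47.95, 93.2 and 108 CPM in the CD8-low group. Tumours on LY2157299 alone had 55.1 and 589 CPM in the CD8-high group, against 64.9 and 76.9 CPM in the CD8-low group. On anti-PD-L1, the CD8-high group held 63.4, 142, 149.8, 272 and 304 CPM, against 75.9, 149 and 213 CPM in the CD8-low group. Vehicle tumours had 38.7, 87.2, 159, 293 and 401 CPM in the CD8-high group, against 61.6, 169, 234 and 289 CPM in the CD8-low group, so there the CD8-low median was the higher one. In the treated tumours alone the log2 difference of Cd8a was 1.12 and that of Cd8b 1.05. In the vehicle tumours alone it was 0.16 for Cd8a and -0.30 for Cd8b. A test of the difference between these effects (edgeR interaction term, chosen after the data were seen) gave 0.95 on the log2 scale for Cd8a, with an unadjusted p of 0.23, and 1.32 for Cd8b, with an unadjusted p of 0.0405 and an adjusted p of 0.999. Within batch 2 the log2 difference was 0.72 for Cd8a and 0.21 for Cd8b, and within batch 3 it was 0.05 for Cd8a and 0.01 for Cd8b. Without P5T3, which held the lowest Cd8a of all libraries, the Cd8a difference was 0.88 (edgeR, unadjusted p = 0.0229). Leaving out that library raises the difference, so this is no separate support.

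The 3 rats with a tumour in each group allow a comparison within the animal, although in each the tumours belonged to different batches. In rat P24, Cd8a was at 304 CPM in the CD8-high and 75.9 CPM in the CD8-low tumour. In rat P26 it was at 142 CPM in the CD8-high and 149 CPM in the CD8-low tumour, and in rat P29 at 272 CPM in the CD8-high and 213 CPM in the CD8-low tumour. Cd8b was higher in the CD8-high tumour of all 3 rats. It lay at 42.5 against 7.94 CPM in P24, 34.1 against 22.4 CPM in P26 and 60.9 against 44.8 CPM in P29. Crtam, an adhesion receptor of activated CD8 T cells and natural killer cells, was higher in the CD8-high tumour of all 3 rats, with 30.4 against 0.365 CPM in P24, 3.81 against 1.92 CPM in P26 and 16.05 against 9.44 CPM in P29. Prf1, the gene of perforin, was likewise higher in the CD8-high tumour of all 3, with 124 against 49.3 CPM, 123 against 36.01 CPM and 116 against 85.97 CPM. Gzmk, granzyme K, did not share this direction: in the CD8-high against the CD8-low tumour it lay at 43.55 against 54.2 CPM in P24, 33.3 against 34.98 CPM in P26 and 19.9 against 12.8 CPM in P29. A fit of these 6 tumours with the rat as a replicate block (edgeR, chosen after the data were seen) gave log2 differences of 0.74 for Cd8a, 1.13 for Cd8b, 2.27 for Crtam, 1.16 for Prf1 and 0.07 for Gzmk. It called 0 of 11085 genes, with 188 at an unadjusted p below 0.05. In this edgeR fit the unadjusted p was 0.119 for Cd8a, 0.0357 for Cd8b, 0.116 for Crtam, 0.00852 for Prf1 and 0.836 for Gzmk. Crtam was chosen by its small p over all libraries, which include these 6 tumours, so its direction here is no separate support. The share of all genes that were higher in the CD8-high tumour of all 3 rats is not given here.

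Across all genes, leukocytes of CD8-high and CD8-low tumours were not told apart. Of 10804 genes tested with edgeR, 0 (0%) passed an adjusted p of 0.05, and the smallest adjusted p was 0.9997. At an unadjusted p below 0.05 there were 167 genes (1.55%), of which 79 (0.731%) were higher and 88 (0.815%) lower in CD8-high tumours. DESeq2 and limma voom with the rat as a block also called 0 genes. The genes named next are those with the smallest p and serve as a description, not as calls.

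Among these 10 genes, 5 had higher fitted levels in the CD8-high group. Crtam ranged from 0.230 over a median of 8.52 to 35.0 CPM in CD8-high libraries, and from 0.365 over 2.31 to 9.44 CPM in CD8-low libraries. The lowest of these values was that of P5T3, and 1 CD8-low library exceeded the CD8-high median. Its log2 difference was 1.97 ± 0.588 (edgeR, unadjusted p = 0.00254). Cited4, a co-regulator of transcription that binds CBP and p300, ranged from 3.19 over 9.64 to 44.5 CPM in CD8-high libraries, and from 2.57 over 5.56 to 8.46 CPM in CD8-low libraries. No CD8-low library reached the CD8-high median, and the log2 difference was 1.09 ± 0.311 (edgeR, unadjusted p = 0.00176). Pde9a, a phosphodiesterase that degrades cyclic GMP, had a median of 3.47 CPM in CD8-high and 0.691 CPM in CD8-low libraries, with a highest value of 11.7 CPM in CD8-high and 2.46 CPM in CD8-low libraries. Mlph, melanophilin, which links Rab27a-bearing organelles to the actin motor, had a median of 3.4 CPM in CD8-high and 1.4 CPM in CD8-low libraries. Ccdc86 had a median of 38.3 CPM in CD8-high and 26.5 CPM in CD8-low libraries.

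The other 5 had lower fitted levels in the CD8-high group. Car7, a carbonic anhydrase, ranged from 0 over a median of 0.712 to 4.2 CPM in CD8-high libraries, and from 0 over 2.33 to 21.03 CPM in CD8-low libraries, and 5 of the 26 libraries held no count of it. Rcan1, an inhibitor of the phosphatase calcineurin, which carries T cell receptor signals, ranged from 10.6 over 29.9 to 49.4 CPM in CD8-high libraries, and from 12.7 over 46.7 to 91.4 CPM in CD8-low libraries. Of the 12 CD8-low libraries, 10 lay above the CD8-high median of Rcan1, and its log2 difference was -0.80 ± 0.248 (edgeR, unadjusted p = 0.00336). Pcsk1, a prohormone convertase, had medians of 3.79 CPM in CD8-high and 7.85 CPM in CD8-low libraries. Pdlim1, a cytoskeletal adaptor, had medians of 38.02 CPM in CD8-high and 49.5 CPM in CD8-low libraries, and Prdx4, a peroxiredoxin of the endoplasmic reticulum, had 43.2 CPM in CD8-high and 53.96 CPM in CD8-low libraries. Leaving out each rat in turn kept the direction of all 10. Their choice by smallest p in these same libraries made that likely, so it is no separate support.

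**Figure D2:**
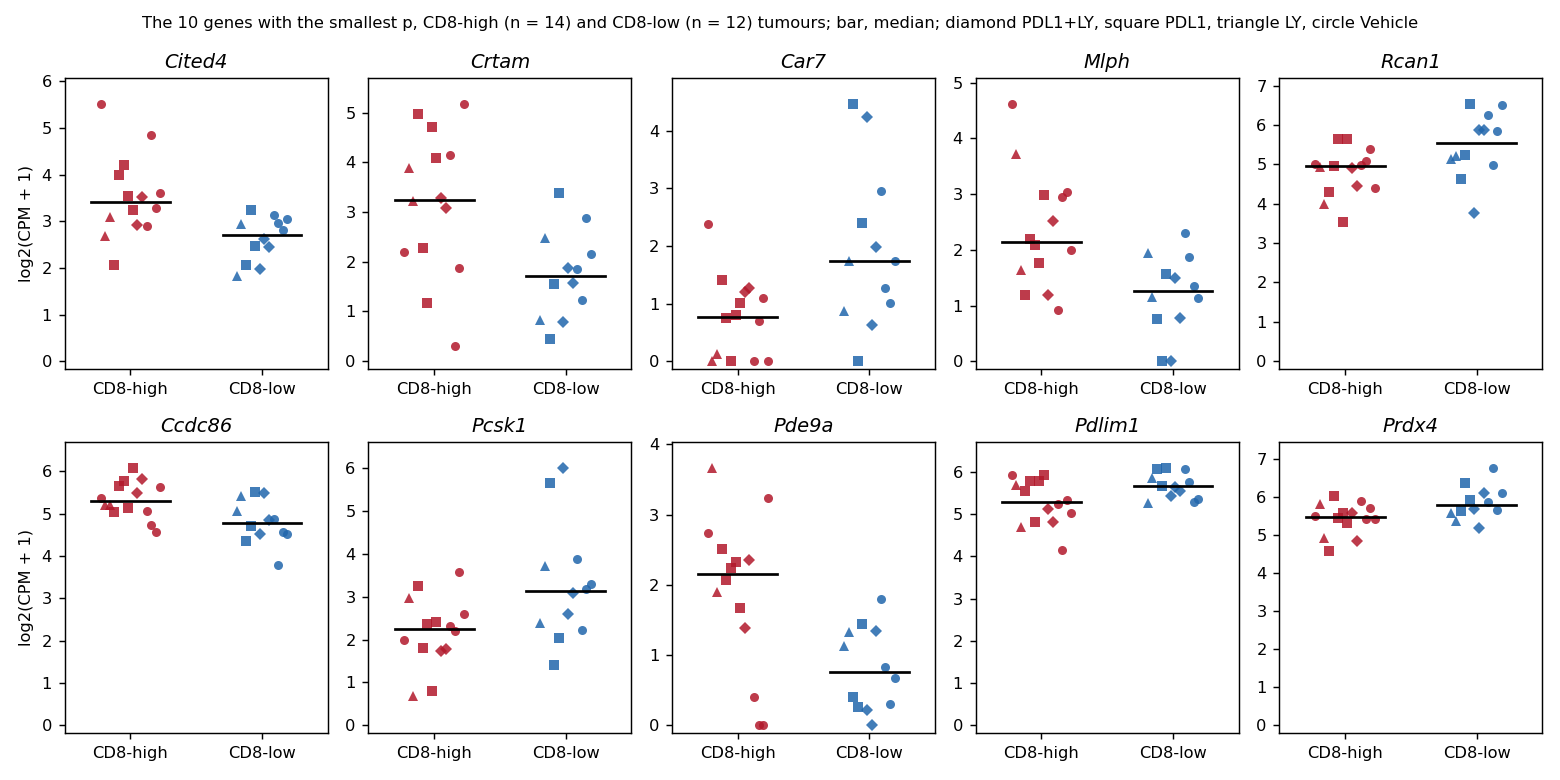
Levels, as log2(CPM + 1), of the 10 genes with the smallest p of the comparison in CD8-high (red, left, n = 14) and CD8-low (blue, right, n = 12) libraries; bars are medians and marker shapes give the treatment. The ranges of all 10 genes overlap between the groups, and for Cited4 and Pde9a no CD8-low library reaches the CD8-high median.

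Of 23 genes listed for CD8 and cytotoxic cells, 22 were in the table and 20 were tested, since Gzmc and Gzmf had too few counts. Of these 20, 0 passed the test, 19 had a log2 difference above 0, against 50.5% of all genes, and the median difference was 0.70, against 0.00 for all genes. At an unadjusted p below 0.05 there were 3 genes, all higher, and the background is 0.731%. These were Crtam, Ccl5 and Gzmk. Ccl5, a chemokine that draws T cells, ranged from 10.4 over a median of 210.3 to 582 CPM in CD8-high libraries, and from 50.6 over 94.4 to 229 CPM in CD8-low libraries, with a log2 difference of 1.20 ± 0.483 (edgeR, unadjusted p = 0.0199). Its highest value was that of P7T1 and its lowest that of P5T3. Gzmk, granzyme K, ranged from 0.844 over 38.4 to 283 CPM in CD8-high libraries, and from 5.73 over 18.1 to 54.2 CPM in CD8-low libraries, with a log2 difference of 1.54 ± 0.646 (edgeR, unadjusted p = 0.025).

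Other effector genes of the list had smaller differences. The log2 difference was 0.77 ± 0.422 for Gzmb (granzyme B), 0.90 ± 0.471 for Nkg7 (a granule protein), 0.82 ± 0.446 for Faslg (the death ligand) and 0.44 ± 0.349 for Prf1. It was 0.67 ± 0.512 for Ifng, the gene of interferon gamma, and 0.73 for Tbx21, the transcription factor T-bet. The only member below 0 was Cst7, an inhibitor of cathepsins that macrophages also express, which was highest in P5T3 at 1181 CPM. Without P5T3 the list had a median of 0.83 and 11 higher genes at an unadjusted p below 0.05, against 1.26% of all genes in that fit. P5T3 held the lowest Crtam, Ccl5 and Gzmk of all libraries and was set apart by its gene levels. The increase without it is therefore no separate support. Within batch 2 the median of the list was 1.30, with 19 of 20 members above 0, whereas within batch 3 it was 0.03, with 11 of 20 above 0. The median was 0.95 in treated tumours and 0.57 in vehicle tumours. The summed level of the list ranged from 1160 over a median of 2121 to 4222 CPM in CD8-high libraries, and from 1097 over 1533 to 2136 CPM in CD8-low libraries. The ranges met at the low end, and the highest CD8-low sum lay near the CD8-high median.

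The levels of these genes were also correlated with CD8Frac as a number. Spearman's rho was above 0 for 18 of 20 genes, with a median of 0.32, and 7 genes had an unadjusted permutation p below 0.05, against 1.35% of all genes with a positive rho at that p. These 7 included Tbx21 (rho = 0.54, permutation p = 0.00512), Ifng (rho = 0.53, permutation p = 0.00557), Crtam (rho = 0.53, permutation p = 0.00631) and Faslg (rho = 0.50, permutation p = 0.00933). Their adjusted p was 1 over the 10804 genes, of which 0 passed by either coefficient (346 genes at an unadjusted p below 0.05 by Spearman's and 780 by Pearson's). Pearson's r was 0.36 for Tbx21, 0.34 for Ifng, 0.54 for Crtam and 0.40 for Faslg. Without P28T1 and P7T1, r was 0.14 for Tbx21, 0.33 for Ifng, 0.26 for Crtam and 0.29 for Faslg, so the linear relation of Tbx21 and Crtam rested largely on those tumours. Over 20 rats rho was 0.45 for Tbx21, 0.53 for Ifng, 0.55 for Crtam and 0.49 for Faslg.

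Of 21 genes of the T cell receptor and its signalling, 13 had a log2 difference above 0, with a median of 0.03. Cd3e had a log2 difference of 0.03 ± 0.286, and Cd4, the helper T cell co-receptor that rat macrophages also carry, of 0.01 ± 0.225. Cd3d, another chain of the receptor complex, had a median of 502 CPM in CD8-high and 492 CPM in CD8-low libraries, and the costimulatory receptor Cd28 had 202 CPM in CD8-high and 164 CPM in CD8-low libraries. Genes of regulatory T cells, which restrain other T cells, had a median log2 difference of -0.07, with 5 of 10 members above 0. Genes of exhaustion and checkpoints had a median of 0.07 over 11 members. The checkpoint ligand Cd274 (PD-L1) had a median of 59.4 CPM in CD8-high and 44.7 CPM in CD8-low libraries, and Pdcd1lg2 (PD-L2) had 11.8 CPM in CD8-high and 8.11 CPM in CD8-low libraries. Natural killer cell genes had a median log2 difference of 0.50 over 8 members, and among them Klre1, a receptor chain of rodent natural killer cells, had 15.2 CPM in CD8-high and 6.63 CPM in CD8-low libraries. No gene of these lists passed the test.

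Of 19 macrophage genes tested, 18 had a log2 difference below 0, against 49.5% of all genes, with a median of -0.69, and 0 had an unadjusted p below 0.05. C1qa, a complement subunit made by macrophages, ranged from 3.95 over a median of 66.6 to 2443 CPM in CD8-high libraries, and from 40.4 over 277 to 2936 CPM in CD8-low libraries, a log2 difference of -1.22 ± 0.666. The highest CD8-high value was that of P5T3 and the lowest that of P28T1. The scavenger receptor Msr1 had a log2 difference of -1.66 ± 0.862, the Fc receptor Fcgr1a of -0.75 ± 0.411 and Gpnmb, a glycoprotein of lipid-laden macrophages, of -0.79 ± 0.453. Without rat P24 the difference was -0.54 for Msr1 and -0.50 for Gpnmb. The macrophage median was -1.16 in treated tumours alone, 0.07 in vehicle tumours alone, -0.19 without treatment in the fit and -0.85 without P5T3. A test of the difference between treated and vehicle tumours, the interaction term, called 0 of 10804 genes with edgeR, with 356 at an unadjusted p below 0.05. MHC class II genes, which present peptides to CD4 T cells, had a median of -0.39 with 8 of 11 members below 0. Their summed level was highest in P5T3, at 122217 CPM, and without that tumour the median was -0.69, with 4 lower genes at an unadjusted p below 0.05, against 1.65% of all genes. The median was -0.05 with batch as a covariate, 0.05 without treatment, -0.93 in treated and 0.50 in vehicle tumours alone, and -0.87 in batch 2 and 0.45 in batch 3 alone. Cd74, the invariant chain, ranged from 3272 over 14829 to 71233 CPM in CD8-high libraries, and from 7997 over 21216 to 43431 CPM in CD8-low libraries, and RT1-Db1, a class II beta chain, had a log2 difference of -0.52 ± 0.394.

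**Figure D3:**
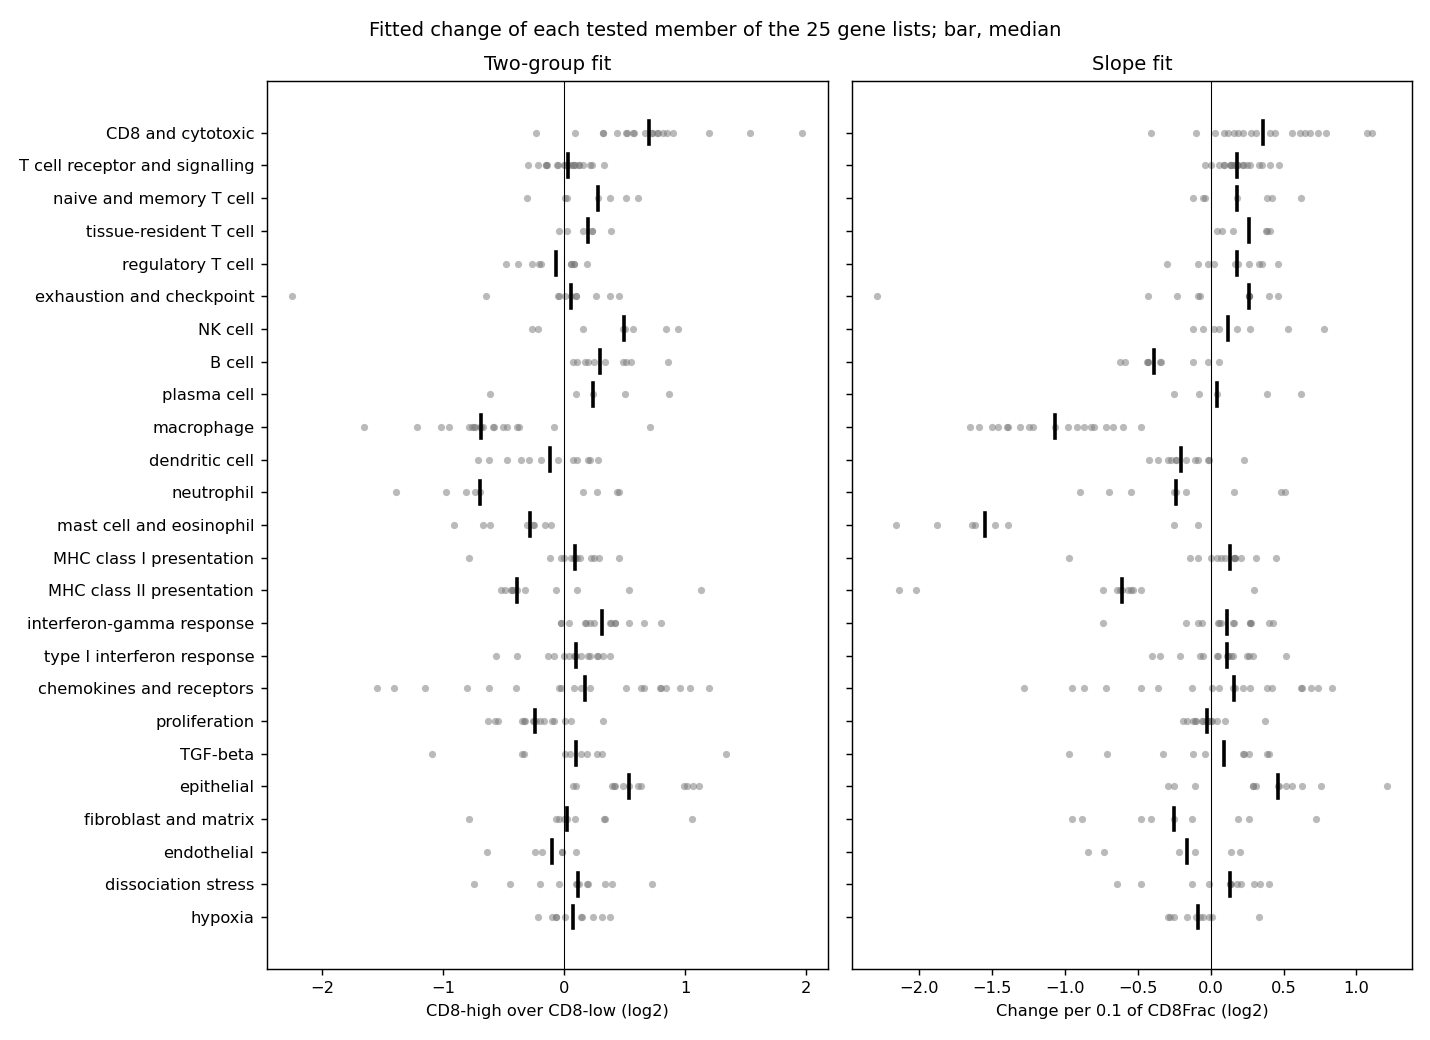
Fitted log2 change of each tested member (grey points) of the 25 gene lists, with the list median (black bar), for CD8-high over CD8-low tumours (left) and per 0.1 of CD8Frac (right). The CD8 and cytotoxic list lies mostly right of 0, with medians of 0.70 and 0.36, and the macrophage list mostly left of 0, with medians of -0.69 and -1.07.

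Among genes of interferon gamma response, 12 of 14 had a log2 difference above 0, with a median of 0.31. Genes of MHC class I presentation had a median of 0.09. Of the chemokines and their receptors, 12 of 20 were above 0. Ccl4, a chemokine of activated T cells and macrophages, had medians of 227 CPM in CD8-high and 149 CPM in CD8-low libraries, and the receptors Cxcr3 and Cxcr4 had log2 differences of 0.64 ± 0.327 and 0.66 ± 0.377. Cell cycle genes had 13 of 16 members below 0, with a median of -0.24. Stmn1, a microtubule destabiliser of dividing cells, ranged from 70.8 over 202 to 398 CPM in CD8-high libraries, and from 203 over 280 to 782 CPM in CD8-low libraries, and its highest CD8-high value was that of P28T1. The centromeric histone Cenpa had a log2 difference of -0.57 ± 0.257 and thymidylate synthase Tyms of -0.55 ± 0.247, while Pcna, the replication clamp, had 0.32 ± 0.234. None of these genes passed the test.

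All 13 epithelial genes tested had a log2 difference above 0, with a median of 0.54. The summed epithelial level ranged from 113 over a median of 298 to 1360 CPM in CD8-high libraries, and from 156.5 over 251.5 to 467 CPM in CD8-low libraries, with the highest value in P7T1. Krt8, a keratin, had a highest value of 224 CPM in CD8-high and 46.2 CPM in CD8-low libraries, and Krt19 of 291 CPM in CD8-high and 81.4 CPM in CD8-low libraries. The milk protein gene Csn3 had its highest value, 290.2 CPM, in P7T1, and Elf3, an epithelial transcription factor, had a log2 difference of 0.99 ± 0.792. The part of epithelial RNA in the differences above was not tested. Egr1, an early-response gene that tissue dissociation also induces, had medians of 483 CPM in CD8-high and 390 CPM in CD8-low libraries.

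The fit on CD8Frac as a number asks for a gradient over all 26 tumours. Changes are given as log2 per 0.1 of CD8Frac. Of 10804 genes, 0 (0%) passed with edgeR, and the smallest adjusted p was 0.131. At an unadjusted p below 0.05 there were 1228 genes (11.4%), 599 (5.54%) with positive and 629 (5.82%) with negative slopes. The other tools differed: DESeq2 called 236 genes (2.18%), 36 (0.333%) with positive and 200 (1.85%) with negative slopes, and limma voom with the rat as a block called 3 (0.0278%), all positive, among them Tnfsf4, the OX40 ligand. Without P5T3, a choice made after the data were seen, edgeR called 9 genes (0.0835%), 1 (0.00928%) positive and 8 (0.0743%) negative. In the vehicle tumours alone it called 7 (0.0634%), all positive.

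Of the 5 genes with the smallest p of negative slope, Lrp1, an endocytic receptor of macrophages, had a slope of -1.14 ± 0.212 (edgeR, adjusted p = 0.131). It lay at 1.00 CPM in P28T1 and 8.16 CPM in P7T1, against a CD8-low range of 10.85 over a median of 17.03 to 78.5 CPM, so both tumours lay below all CD8-low libraries. Sirpa, the myeloid receptor for CD47, had a slope of -1.26 ± 0.248 and lay at 2.95 CPM in P28T1 and 19.7 CPM in P7T1, against a lowest CD8-low value of 23.4 CPM. Lpcat2, an acyltransferase that makes platelet-activating factor, had -1.28 ± 0.261, Apobec1, a cytidine deaminase, -1.55 ± 0.329 and Tnfsf12 (TWEAK) -0.86 ± 0.189. These 5 genes were among the 9 called without P5T3, each with an adjusted p of 0.0446 by edgeR. Both fits share all libraries but P5T3, so these calls are not separate support. All 19 macrophage genes had negative slopes, against 54.4% of all genes, with a median of -1.07, and 16 of them had an unadjusted p below 0.05, against 5.82% of all genes. DESeq2 called 14 of the 19, all with negative slopes, against 1.85% of all genes called by DESeq2 with negative slopes. The summed macrophage level was 227 CPM in P28T1, the lowest of all, and 3108 CPM in P7T1, against a CD8-low range of 1113 over 3871 to 22048 CPM. Without those 2 tumours the median slope of the macrophage list was -0.55, with 17 of 19 members below 0 and 2 at an unadjusted p below 0.05, against 1.72% of all genes in that fit, and 0 genes of the table passed.

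Of the 5 genes with the smallest p of positive slope, Tmem140 had a slope of 0.47 ± 0.0972, Tchp, a keratin-binding protein, 0.39 ± 0.0819, Idi1, an enzyme of isoprenoid synthesis, 0.45 ± 0.0992, Ubac2, a protein of the endoplasmic reticulum, 0.41 ± 0.0922 and Traf1, an adaptor of TNF receptors in activated lymphocytes, 0.57 ± 0.132, each with an adjusted p of 0.131 to 0.151 by edgeR. P28T1 held the highest level of Tmem140 (59.8 CPM), Tchp (157 CPM), Idi1 (205 CPM) and Traf1 (508 CPM). The CD8 and cytotoxic list had 18 of 20 slopes above 0, against 45.6% of all genes, with a median of 0.36 and 8 genes at an unadjusted p below 0.05, against 5.54% of all genes. Among these were Faslg with 0.79 ± 0.220, Crtam with 1.11 ± 0.352 and Gzmk with 1.07 ± 0.305, whereas Cd8a had 0.31 ± 0.266 and Cd8b 0.12 ± 0.232. Without P28T1 and P7T1 the slope was 1.35 for Cd8a and 1.29 for Cd8b, and the median slope of the list was 1.08. CD8Frac then ran only from 0.01 to 0.152, so a change per 0.1 covers most of that range. The median r of the list fell from 0.25 to 0.14 without these tumours, and its median rho from 0.32 to 0.24. For Cd8a r was 0.20 with and 0.21 without them, and for Cd8b 0.15 and 0.41. A steeper slope here need not be a closer relation. Faslg and Crtam were the 2 of 20 members that DESeq2 called, against 0.333% of all genes called by DESeq2 with positive slopes. Ccl4 had a slope of 0.83 ± 0.212, Cxcr4 of 0.63 ± 0.189 and Ccl5 of 0.74 ± 0.268. Without rat P7 the slope of Ccl4 was 0.30, and without rat P28 it was 1.25.

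**Figure D4:**
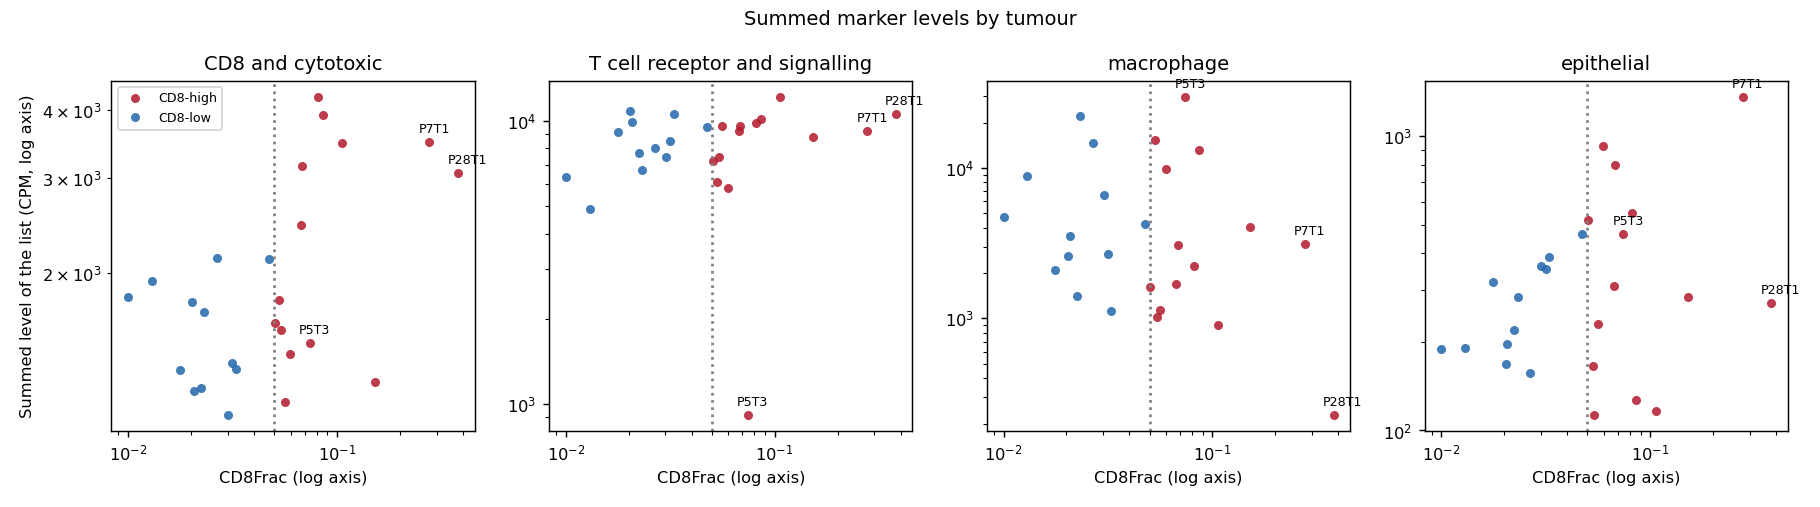
Summed level (CPM, log axis) of 4 gene lists in each Ptprc-high library against the CD8Frac of its tumour (log axis; dotted line at 0.05), with CD8-high tumours in red and CD8-low tumours in blue. P28T1 has the lowest macrophage level (227 CPM) and P5T3 the highest macrophage (29624 CPM) and the lowest T cell receptor level (912 CPM).

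P28T1 and P7T1 both belonged to batch 2. Within batch 2 the macrophage list had a median slope of -1.11 with all 19 members below 0, and within batch 3 it was -0.20 with 12 of 19 below 0. The CD8 and cytotoxic list had a median slope of 0.39 within batch 2 and of -0.31 within batch 3, where the highest CD8Frac was 0.152. Mast cell and eosinophil genes had 8 of 8 slopes below 0, with a median of -1.55. Their leading gene, the tryptase Tpsb2, had a slope of -1.88 ± 0.726, with 0.335 CPM in P28T1. MHC class II genes had 10 of 11 below 0, with a median of -0.61, and Cd74 had a slope of -0.62 ± 0.233. The epithelial list had a median slope of 0.46, which was -0.05 without rat P7.

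Tumour size, in a unit that the sources used here do not give, ranged from 3 over a median of 15.5 to 40 in CD8-high tumours, and from 10 over 26.5 to 47 in CD8-low tumours. The difference of means was -10.2 (permutation test, two-sided p = 0.0292, adjusted p = 0.117 over the 4 tumour measures compared), so it did not pass. The growth rate averaged 6.12 ± 9.03 (SD, n = 13) in CD8-high and 5.79 ± 3.27 (SD, n = 12) in CD8-low tumours, by a two-sided permutation test p = 0.911. Of tumours with a growth class, 5 of 13 CD8-high and 1 of 12 CD8-low tumours were recorded as stable (Fisher's exact test, two-sided p = 0.16). Time from NMU to sacrifice averaged 98.7 ± 24.5 in CD8-high and 112 ± 35.5 in CD8-low tumours (permutation test, two-sided p = 0.268). Over the 26 tumours Pearson's r between size and CD8Frac was -0.42 (permutation p = 0.0266) and Spearman's rho was -0.33 (permutation p = 0.0944). Over 20 rats rho was -0.20 (permutation p = 0.384). Without P28T1 and P7T1, which measured 3 and 6 and were both recorded as stable, r was -0.10, so the relation rested on those tumours.

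**Figure D5:**
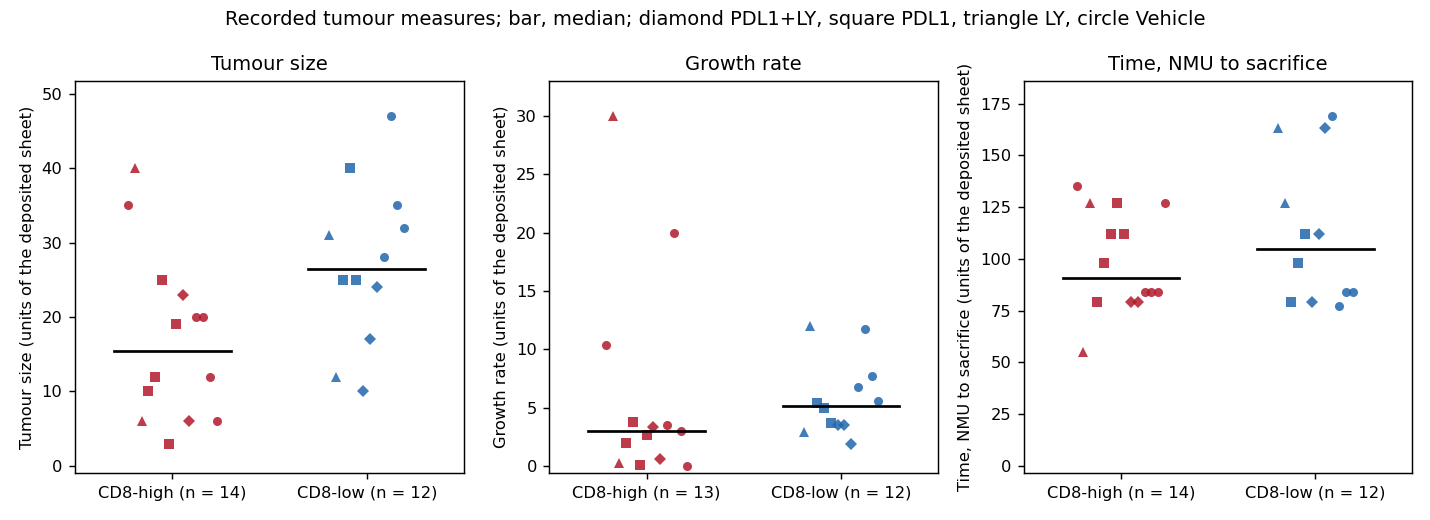
Tumour size, growth rate and time from NMU to sacrifice, in the units of the deposited sheet, for CD8-high (red, left) and CD8-low (blue, right) tumours; bars are medians. The median size was 15.5 in CD8-high and 26.5 in CD8-low tumours, and the ranges overlap for all 3 measures.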

How the data were processed

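RNA of sorted tumour fractions was amplified with a SMARTer low-input kit, per the labels' protocols. The authors deposited whole-number gene counts for 17455 symbols. The submitters' processing notes list STAR, FastQC and rn6; which tool counted, and whether by strand, is not given in the sources used here. Of 108 columns 24 were not used, being of other rats, unnamed, or of a tumour with 3 columns and 2 labelled samples. CD8Frac is a fraction deposited by the authors, and size, growth rate and time were deposited as scores without a stated unit.

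CPM is a count over the column total. Counts were fitted with edgeR 4.0.16 (R 4.3.3; TMM, filterByExpr, robust quasi-likelihood, treatment as covariate), with Benjamini-Hochberg adjustment at 0.05; SE is the absolute log2 change over the square root of F, and 95% intervals use it. CD8Frac entered as 2 groups or as a number. Limma 3.58.1 and DESeq2 1.42.0 were alternatives, and scripts were tested on simulated data. Correlations used log2(CPM + 1) and 100000 permutations, with adjustment over all genes tested in place of the list alone. They had no treatment term, and those over tumours were permuted as if tumours of 1 rat were independent. A count of 3 equals 0.137 to 0.449 CPM, a limit that covers counting error only. Replicates are tumours; p-values measure the spread between them.

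Named genes were Cd8a, Cd8b, the 10 with the smallest p, the 5 per direction with the smallest p of the slope and up to 4 members of each list; any other gene was picked with its values known. Of 345 entries in 25 gene lists 328 were found in the table, some through a synonym in RefSeq (GRCr8). By such a match the dendritic cell list holds Itgad, a different integrin gene, where Itgax was listed. The members and lists were chosen with earlier results of these data known. The result for 1 gene is not reported here.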

Additional observations from a re-analysis of the deposited data

Results flagged for a closer look

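A signal was seen in libraries outside the comparison, chosen after the values were seen. They were the 39 libraries below the Ptprc limit from 26 tumours with a CD8Frac, averaged per tumour. These are not the same 26 tumours as above. They include P17T1, P39T3, P36T2, P38T2, P30T2 and P10T1 and lack P14T1, P16T1, P31T1, P35T1, P5T3 and P19T2. Cd8a in these libraries ranged from 0.299 over a median of 3.12 to 27.7 CPM in 12 CD8-high tumours, and from 0 over 0.616 to 1.76 CPM in 14 CD8-low tumours. Against CD8Frac, Spearman's rho was 0.47 (permutation p = 0.0178) and Pearson's r was 0.72 (permutation p = 0.00057), and over 20 rats rho was 0.66 (permutation p = 0.0022). Without the tumours farthest from the median, r was 0.41. Adjusted over 12017 genes the p of r was 0.353, so it did not pass. Ptprc in the same libraries had r = 0.53 with CD8Frac, or 0.21 without those tumours, and rho = 0.36 (permutation p = 0.0742), and it was highest in P28T1, at 124 CPM. The part of leukocyte RNA in the result was not tested.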

How the results depend on the processing

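The comparison of CD8-high with CD8-low tumours called 0 genes under every alternative run, with each rat left out in turn included. The slope on CD8Frac called 0 genes with edgeR, 236 with DESeq2, 3 with limma voom and the rat as a block, 9 with Ptprc at 600 CPM, which removes P5T3 and gives the 9 found without it, and 7 in vehicle tumours alone. With each rat left out it called 0 to 10, the 10 without P27. Of 2736 values of results under alternatives 2657 kept their direction and side of the threshold and 38 reversed. Group differences that reversed in vehicle tumours alone were Cd8b -0.30, Ifng -0.10, Pdcd1lg2 -0.41, C1qa 0.07, Cd74 0.43 and RT1-Db1 0.43. In batch 3 alone they were Gzmk -0.07, Gzmb -0.10, Nkg7 -0.23, Prf1 -0.22, Ifng -0.35, Cd28 -0.57, Cd274 -0.41, Pdcd1lg2 -0.04, Cd74 0.18, RT1-Db1 0.08, Tyms 0.02, Pcna -0.02 and Csn3 -0.26, and in batch 2 alone Pcsk1 0.59. At a CD8Frac limit of 0.03 Cd3d was 0.01, and at 0.10 Mlph was -0.11, Prf1 -0.27, Cd3d 0.36 and Stmn1 0.07. With limma voom Cd28 was -0.10. Slopes that reversed were Cd8b -0.04 in vehicle tumours, Csn3 -0.70 in treated tumours, and in batch 3 Cd8a -0.37, Traf1 -0.17, Gzmk -0.54, Ccl5 -0.96, Ccl4 -0.05 and Csn3 -0.53. Csn3 ran from -0.62 without P7 to 1.72 without P28. The cause of these changes was not tested. The fits by batch, without P5T3 and without P28T1 and P7T1 were chosen after seeing the data. With the rat as a replicate block in the 3 rats that have both groups, also chosen after seeing the data, 0 genes were called and Cd74 was 0.03, Ccl4 -0.04 and Pcna -0.04. The replicate numbers of the labels count the samples of 1 tumour and pair nothing. Leaving out 1 rat moved 27 of 70 single-gene values by over 1.5 times.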

Other observations

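B cell genes had log2 differences above 0 in 10 of 10 members between CD8-high and CD8-low tumours, with a median of 0.30, but slopes on CD8Frac below 0 in 9 of 10, with a median of -0.39. Neither held a gene that passed, and the summed B cell level ranged from 388 over 573 to 5034 CPM in CD8-high libraries and from 375 over 602 to 2139 CPM in CD8-low libraries. In the vehicle tumours alone the slope called 7 genes with edgeR, all positive, among them Txnrd1 and Srxn1, which are known targets of the oxidative stress response, and Acod1, an immunometabolic enzyme of activated macrophages. Their slopes were 1.13 for Txnrd1, 1.22 for Srxn1 and 1.59 for Acod1 in these tumours, against 0.31, 0.10 and 0.51 over all tumours. They were named after their values were seen, and 1 of the 9 vehicle tumours, P7T1, had a CD8Frac above 0.0858.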
